A study of Mus musculus with 25 samples.

Results

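Lcn2 and Serpina3n are a pair of genes known as markers of reactive astrocytes in many disorders of the central nervous system. They were taken by symbol from 4 tables of ribosome-associated messenger RNA counts, and are 2 of the 12454 genes in any table and 2 of the 7834 genes in all 4. They were chosen by their raw counts scaled to counts per library total in these same libraries, across all 7 groups, so those levels and the differences between groups are given as a description, with no test. All 25 libraries came from mouse thoracic spinal cord, 1 animal each as far as the titles show, and fall into 7 groups. Every mouse, controls included, carried Gfap-Cre and a floxed RiboTag allele, so ribosomes were tagged in cells with Gfap-Cre activity, and the RNA was precipitated with those ribosomes. Wild-type (WT) mice had no further floxed gene, Stat3cKO mice also carried Stat3 fl/fl, and Smarca4cKO mice Smarca4 fl/fl. The labels give the strain as C57BL6 for WT and Stat3cKO and as C57BL6;129S2 for Smarca4cKO, so the effect of Smarca4 deletion and that of strain cannot be told apart. Uninjured mice gave 4 WT, 3 Stat3cKO and 3 Smarca4cKO libraries. Mice given lipopolysaccharide (LPS, a bacterial cell wall component that drives systemic inflammation) gave 4 WT, 4 Stat3cKO and 3 Smarca4cKO libraries, and spinal cord injury (SCI) gave 4 libraries, all Smarca4cKO. LPS mice received 5 mg/kg into the peritoneum and were studied 24 hours later. SCI mice were studied 14 days after a complete crush, and the dissected cord ran over the 3 mm at the centre of the injury plus 1 mm to each side. No WT or Stat3cKO library after SCI was analysed here, and the labels give no age or sex. Both Smarca4cKO comparisons share the 3 uninjured libraries.

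Lcn2 encodes lipocalin-2, a small secreted protein that binds iron-loaded bacterial siderophores and is taken up through the receptors Slc22a17 and Lrp2. Serpina3n encodes a secreted inhibitor of serine proteases, known in mice to block granzyme B and neutrophil elastase, and is one of a cluster of closely related Serpina3 genes. Both belong to the acute phase response, and interleukin-1, tumour necrosis factor, interleukin-6 family cytokines and glucocorticoids are known inducers of one or both, through NF-kB, C/EBP and STAT3 transcription factors. Stat3 is needed for the scar-forming reaction of astrocytes after injury, and Smarca4 is an ATPase of the BAF chromatin remodelling complex.

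In the GENCODE M21 annotation of GRCm38, Lcn2 (ENSMUSG00000026822.14) lies on chromosome 2 from 32384633 to 32388252 on the minus strand, with 6 annotated transcripts of which 2 code for protein. Serpina3n (ENSMUSG00000021091.8) lies on chromosome 12 from 104406729 to 104414329 on the plus strand, with 1 transcript of 5 exons. The stretch of 250 bases before each RefSeq start site (GRCm38.p6) is shown because the 2 genes moved together, with capitals at matches to the letters searched for NF-kB (GGG and CC with any 5 bases between them) and C/EBP (TTNNGNAA). The Lcn2 window is chr2:32387740-32387989 on the minus strand and the Serpina3n window chr12:104406458-104406707 on the plus strand, each written 5′ to 3′ on the strand of its gene. The RefSeq start of Lcn2 lies 513 bases downstream of the GENCODE gene start, so this window lies within the annotated gene. What it holds or lacks applies to the RefSeq start only.
Lcn2: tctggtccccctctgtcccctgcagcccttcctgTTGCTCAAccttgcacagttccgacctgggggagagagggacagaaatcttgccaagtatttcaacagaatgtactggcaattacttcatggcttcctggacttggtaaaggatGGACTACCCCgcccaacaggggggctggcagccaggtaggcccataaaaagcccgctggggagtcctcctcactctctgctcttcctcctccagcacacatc
Serpina3n: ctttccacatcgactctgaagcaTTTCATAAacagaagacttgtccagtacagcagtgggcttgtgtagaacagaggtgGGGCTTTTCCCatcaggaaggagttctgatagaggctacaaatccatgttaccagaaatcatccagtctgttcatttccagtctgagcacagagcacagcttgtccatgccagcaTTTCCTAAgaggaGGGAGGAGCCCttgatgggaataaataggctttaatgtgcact
Both strands were searched in both windows. Lcn2 had 1 NF-kB match, from base -102 to -93 before the start, and 1 C/EBP match, from -216 to -209. Serpina3n had NF-kB matches from -171 to -162 and from -43 to -34, each overlapping a match on the opposite strand that was shifted by 1 base, and C/EBP matches from -227 to -220 and from -56 to -49. Neither window held the STAT letters TTCNNNGAA, the TATA letters TATAAA or the interferon-element letters (GAAA repeated after any 2 bases). Among 32851 mouse promoter windows of the same length, 45.8% held the NF-kB letters, 36.8% the C/EBP letters, 12.4% the TATA letters, 7.02% the STAT letters and 2.98% the interferon letters. These matches describe letters in these windows and say nothing of binding. The transcripts of Lcn2 shared none of their 2712 stretches of 50 bases with another gene. Of the 2015 such stretches of Serpina3n, 139 (6.9%) also occur in 7 other Serpina3 genes or pseudogenes, most of them in Serpina3e-ps (54) and Serpina3g (51). How the authors' counting treated reads from these stretches is not given in the sources used here, so that part of the Serpina3n count is uncertain.

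The deposited tables held from 52433934 to 106513035 counts per library, and every count of the 3 shared uninjured libraries was equal in both Smarca4cKO tables for all 7971 genes they have in common. Levels are CPM, counts scaled to a fixed library total over the 7834 common genes after TMM scaling. In uninjured libraries, Stat3 was at 101 to 153 CPM in WT and at 8.61 to 21.6 CPM in Stat3cKO, and Smarca4 was at 64.0 to 90.3 CPM in WT and at 12.7 to 21.8 CPM in Smarca4cKO. After LPS the separation was less clear. Stat3 was at 322, 126, 92.8 and 212 CPM in the libraries labelled Stat3cKO LPS 1 to 4, against 177 to 516 CPM in WT LPS, so libraries 1 and 4 lay within the WT LPS range. Smarca4 was at 0.0166, 50.0 and 5.70 CPM in the libraries labelled Smarca4cKO LPS 1 to 3, against 66.2 to 124 CPM in WT LPS. Group names below are those of the labels, and the differences of Lcn2 and Serpina3n that rest on these libraries, and the counts of gene lists, are also given without them. The description of the library Smarca4cKO LPS 1 names the SCI table as well as the LPS table. Its treatment label and its column place it in the LPS group, and values without it are given too. All 10 astrocyte markers searched were listed in every table, at a summed 40700 to 87710 CPM. Of 14 neutrophil markers, none was listed in the WT table, and S100a8, S100a9, Ngp and Mpo, which define that cell, were listed in no table. Only Lyz2, which macrophages share, and in the SCI table also Csf3r, were listed. No erythrocyte marker was listed, endothelial markers were listed in the Stat3cKO and SCI tables only, and T cell markers by 1 gene, Lck, in the Stat3cKO table.

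In uninjured cord, Lcn2 was close to undetected in every genotype, while Serpina3n was well expressed and ordered by genotype. The Lcn2 count was 11, 12, 4 and 13 in the 4 WT uninjured libraries, 10, 6 and 93 in the 3 Stat3cKO uninjured libraries and 14, 21 and 17 in the 3 Smarca4cKO uninjured libraries. These counts correspond to 0.208, 0.145, 0.0798 and 0.168 CPM in WT, to 0.133, 0.0961 and 1.08 CPM in Stat3cKO and to 0.157, 0.281 and 0.206 CPM in Smarca4cKO. The 3 genotypes overlapped, and Stat3cKO library 3 stood above all the others. Its 93 counts were 9.29 times the rate of the other 2 Stat3cKO libraries together (95% exact Poisson interval of the ratio 5.43 to 16.9, which covers counting error only). The Lcn2 difference of uninjured Stat3cKO from uninjured WT was 1.56 ± 0.77 on the log2 scale (estimate ± SE of a fit of all 7 groups), and was -0.38 without that library. The difference of uninjured Smarca4cKO from uninjured WT was 0.49 ± 0.82.

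Serpina3n was at 54.1, 197, 142 and 96.4 CPM in WT uninjured, at 52.1, 36.5 and 39.5 CPM in Stat3cKO uninjured and at 242, 300 and 313 CPM in Smarca4cKO uninjured. All Stat3cKO libraries lay below all WT libraries, although the lowest WT library was only 1.04 times the highest Stat3cKO one, and all Smarca4cKO libraries lay above all WT libraries. Of the 7834 genes, 5.16% lay lower without overlap in uninjured Stat3cKO and 6.48% lay higher without overlap in uninjured Smarca4cKO. The log2 difference of Serpina3n from uninjured WT was -1.52 ± 0.34 in Stat3cKO and 1.22 ± 0.33 in Smarca4cKO, equal to a 2.87-fold lower and a 2.33-fold higher mean. Without WT uninjured library 1, the lowest of its group, these differences were -1.76 and 0.97. Because RNA was pulled down from a whole piece of cord, fewer astrocytes that express a gene and less of its RNA per astrocyte cannot be told apart here or below.

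Levels were also divided by exon length, counted as all bases in exons of any annotated transcript. That length was 2.623 kb over 6 transcripts for Lcn2 and 2.064 kb over 1 transcript for Serpina3n. Where the transcripts present are shorter than this, the level per kilobase is too low, so it compares genes only roughly. Per kilobase, Serpina3n stood at a mean of 59.3 ± 29.7 CPM per kb in WT uninjured (SD, n = 4), 20.7 ± 4.003 in Stat3cKO uninjured (n = 3) and 138 ± 18.1 in Smarca4cKO uninjured (n = 3). Lcn2 stood at 0.0572 ± 0.0204, 0.166 ± 0.213 and 0.0818 ± 0.0238 CPM per kb in the same groups. Among the 7531 genes with a length, Serpina3n ranked between 230 and 314 from the top in the 3 uninjured Smarca4cKO libraries and between 1661 and 2329 in the 3 uninjured Stat3cKO libraries. Lcn2 ranked between 6849 and 7500 across the 10 uninjured libraries, among the least abundant of these genes. The genes ranked are those listed in all 4 tables, each of which includes challenged libraries. Genes listed in fewer tables were not ranked, so the low place holds within this set only.

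After LPS, Lcn2 and Serpina3n were higher in every WT library than in any uninjured one. Lcn2 was at 265, 1799, 671 and 583 CPM in WT LPS libraries 1 to 4, a mean of 829.7 ± 669.6 CPM (SD, n = 4) against 0.150 ± 0.0536 CPM uninjured (n = 4). Serpina3n was at 2892, 8318, 6115 and 4358 CPM, a mean of 5421 ± 2338 CPM against 122.3 ± 61.2 CPM. The lowest WT LPS library exceeded the highest uninjured one 1273-fold for Lcn2 and 14.7-fold for Serpina3n. Of the 7834 genes, 6.01% were higher in WT LPS without overlap, and since both genes were chosen for this difference nothing is read from that share. The log2 difference was 12.41 ± 0.93 for Lcn2 and 5.47 ± 0.37 for Serpina3n. Lcn2 had the highest estimate of the 10566 genes in the fit of these 8 libraries, and Serpina3n stood at place 62. In the fits of the other challenges, Lcn2 and Serpina3n stood at places 132 and 393 of 11709 in Stat3cKO LPS. They stood at 27 and 108 of 8040 in Smarca4cKO LPS, and at 538 and 989 of 11109 after SCI. Both genes were chosen on these values, so the places are description only. In WT the Lcn2 estimate rests on 40 uninjured counts. WT LPS library 2 was highest and library 1 lowest for both genes. Relative to the uninjured mean, Lcn2 ranged from 1764-fold in library 1 to 11980-fold in library 2, and Serpina3n from 23.6-fold to 68.0-fold. Without library 2 the log2 differences were 11.69 and 5.19.

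**Figure D1:**
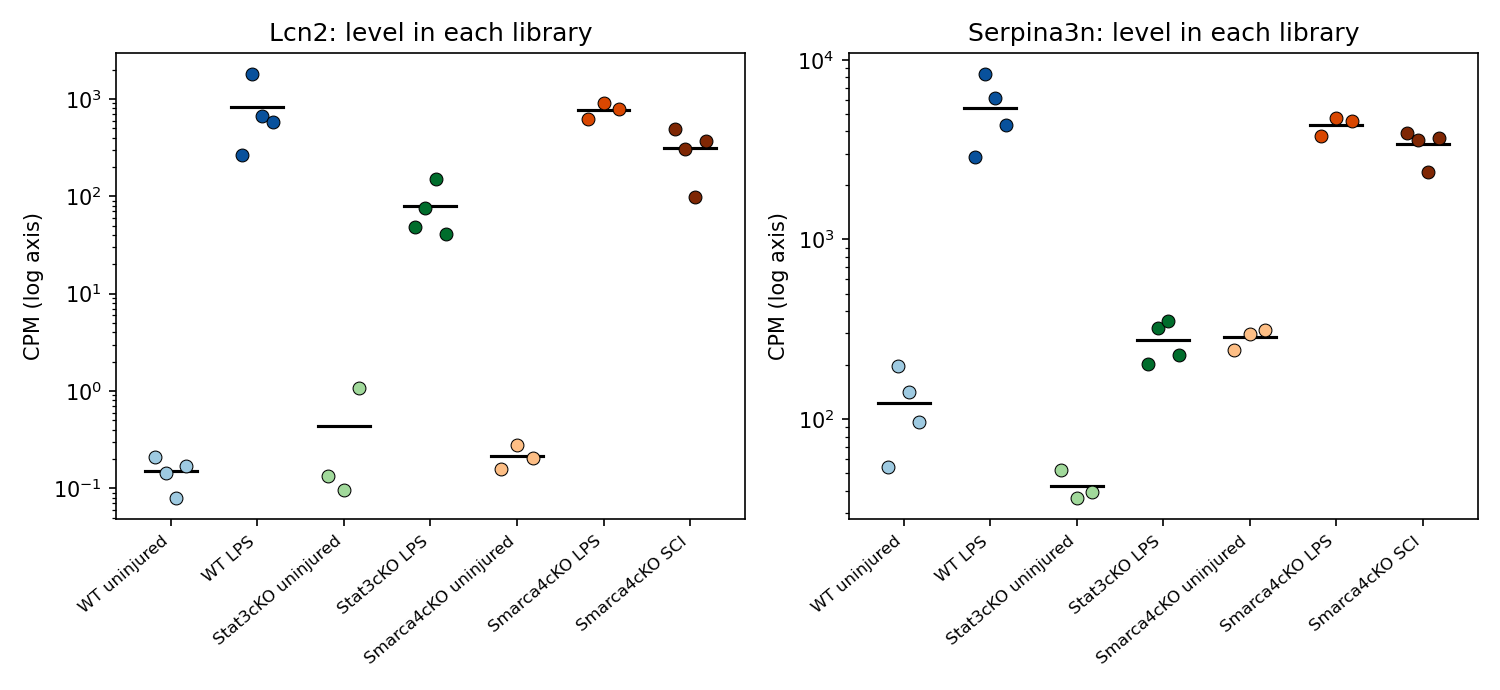
Level of Lcn2 (left) and Serpina3n (right) in each of the 25 libraries, in CPM on a log axis, by group; points are libraries and lines group means. Stat3cKO LPS libraries lie at 41.4 to 149 CPM for Lcn2 and 203 to 352 CPM for Serpina3n, below all other challenged libraries for Serpina3n and below all WT LPS libraries for both.

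In Stat3cKO mice given LPS, both genes were again above every uninjured library of their genotype, at lower levels than in WT. Lcn2 was at 47.9, 76.4, 149 and 41.4 CPM, a mean of 78.8 ± 49.5 CPM (SD, n = 4). Serpina3n was at 203, 320, 352 and 228 CPM, a mean of 275.9 ± 71.5 CPM. Of the common genes, 15.2% were higher in Stat3cKO LPS without overlap. The log2 difference from uninjured Stat3cKO was 7.45 ± 0.87 for Lcn2 and 2.69 ± 0.36 for Serpina3n, and the ratios of mean CPM were 180.5 and 6.46. The Lcn2 log2 difference rests in part on the uninjured library with 93 counts, and was 9.39 without it, while that of Serpina3n was 2.64. Without Stat3cKO LPS library 1 or 4, where Stat3 was high, the differences were 7.63 or 7.66 for Lcn2 and 2.81 or 2.77 for Serpina3n.

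Set beside WT after LPS, the Stat3cKO level was 10.5-fold lower for Lcn2 and 19.7-fold lower for Serpina3n as a ratio of means. The groups did not overlap for either gene, as for 3.55% of the 7834 genes in that direction, and the nearest libraries were 1.77-fold apart for Lcn2 and 8.21-fold apart for Serpina3n. The log2 differences were -3.40 ± 0.62 and -4.30 ± 0.35. Serpina3n in Stat3cKO after LPS, at 275.9 CPM, overlapped its uninjured level in Smarca4cKO, at 284.8 ± 37.4 CPM. The difference between the LPS responses, Stat3cKO minus WT, was -4.96 ± 0.97 for Lcn2 and -2.78 ± 0.45 for Serpina3n. Serpina3n was therefore lower in Stat3cKO both before LPS (-1.52) and in its response (-2.78). For Lcn2 the response difference was -3.01 without Stat3cKO uninjured library 3. Stat3cKO LPS libraries 1 and 4, with the most Stat3, had the least Lcn2 and Serpina3n of their group, and library 3, with the least Stat3, had the most of both. Whether the Stat3 RNA counted in these libraries bears on either gene was not tested. Leaving out library 1 or library 4 gave -3.22 or -3.18 for Lcn2 and -4.18 or -4.21 for Serpina3n against WT LPS. The differences between responses were then -4.78 or -4.75 for Lcn2 and -2.66 or -2.70 for Serpina3n. Microglia and macrophage markers, 10 of 18 of them listed, summed to 127 to 314 CPM in Stat3cKO LPS and to 62.1 to 119 CPM in Stat3cKO uninjured. Other cell types moved as well, with no overlap. Oligodendrocyte markers summed to 9799 to 12870 CPM against 5937 to 7746 CPM, neuron markers to 648 to 901 CPM against 323 to 386 CPM, and endothelial markers (5 of 12 listed) to 19.5 to 43.1 CPM against 4.95 to 7.75 CPM. Lyz2, the 1 neutrophil marker listed, was at 3.36 to 9.93 CPM against 0.0399 to 1.96 CPM, and Lck, the 1 T cell marker listed, at 2.23 to 16.4 CPM against 0. Astrocyte markers summed to 58170 to 68390 CPM against 68340 to 69950 CPM. Fibroblast markers, at 242 to 274 CPM against 310 to 391 CPM, and ependymal markers, at 139 to 167 CPM against 178 to 199 CPM, were lower. In WT LPS against WT uninjured, oligodendrocyte markers (5839 to 12440 against 6388 to 11150 CPM) and neuron markers (419 to 696 against 285 to 462 CPM) overlapped. Microglia and macrophage markers (8 of 18 listed; 62.2 to 100 against 68.0 to 209 CPM), astrocyte and ependymal markers overlapped there too. Fibroblast markers were lower in WT LPS with no overlap, at 290 to 319 against 327 to 446 CPM. The part of these shifts in the differences of Lcn2 and Serpina3n was not tested.

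In Smarca4cKO mice given LPS, Lcn2 was at 616, 909 and 797 CPM, a mean of 774.3 ± 147.9 CPM (SD, n = 3), and Serpina3n was at 3760, 4749 and 4566 CPM, a mean of 4359 ± 526 CPM. Every LPS library exceeded every uninjured one for both genes, as 8.5% of the common genes did. The log2 difference from uninjured Smarca4cKO was 11.82 ± 1.04 for Lcn2 and 3.94 ± 0.40 for Serpina3n. Both genes overlapped WT LPS, with log2 differences of -0.10 ± 0.61 and -0.31 ± 0.33. Without WT LPS library 2 the Lcn2 difference became 0.61, so that its sign is not settled. In the response, Smarca4cKO minus WT was -0.59 ± 1.02 for Lcn2, or 0.12 without WT LPS library 2, and -1.53 ± 0.47 for Serpina3n. For Serpina3n a similar level was reached from a higher start: 15.3 times the uninjured mean in Smarca4cKO and 44.3 times in WT. Without the library labelled Smarca4cKO LPS 2, where Smarca4 was at 50.0 CPM, the log2 differences from uninjured were 11.69 for Lcn2 and 3.87 for Serpina3n, and the response differences -0.72 and -1.60. Against WT LPS they were then -0.23 and -0.38. Without the library Smarca4cKO LPS 1 the differences were 11.96 and 4.03 from uninjured, 0.04 and -0.22 against WT LPS, and -0.45 and -1.44 between responses. Astrocyte markers summed to 71600 to 75980 CPM after LPS and to 58300 to 62400 CPM uninjured, and Lyz2 was at 0.0273 to 6.29 CPM against 12.6 to 32.3 CPM. Their part in these differences was not tested.

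**Figure D2:**
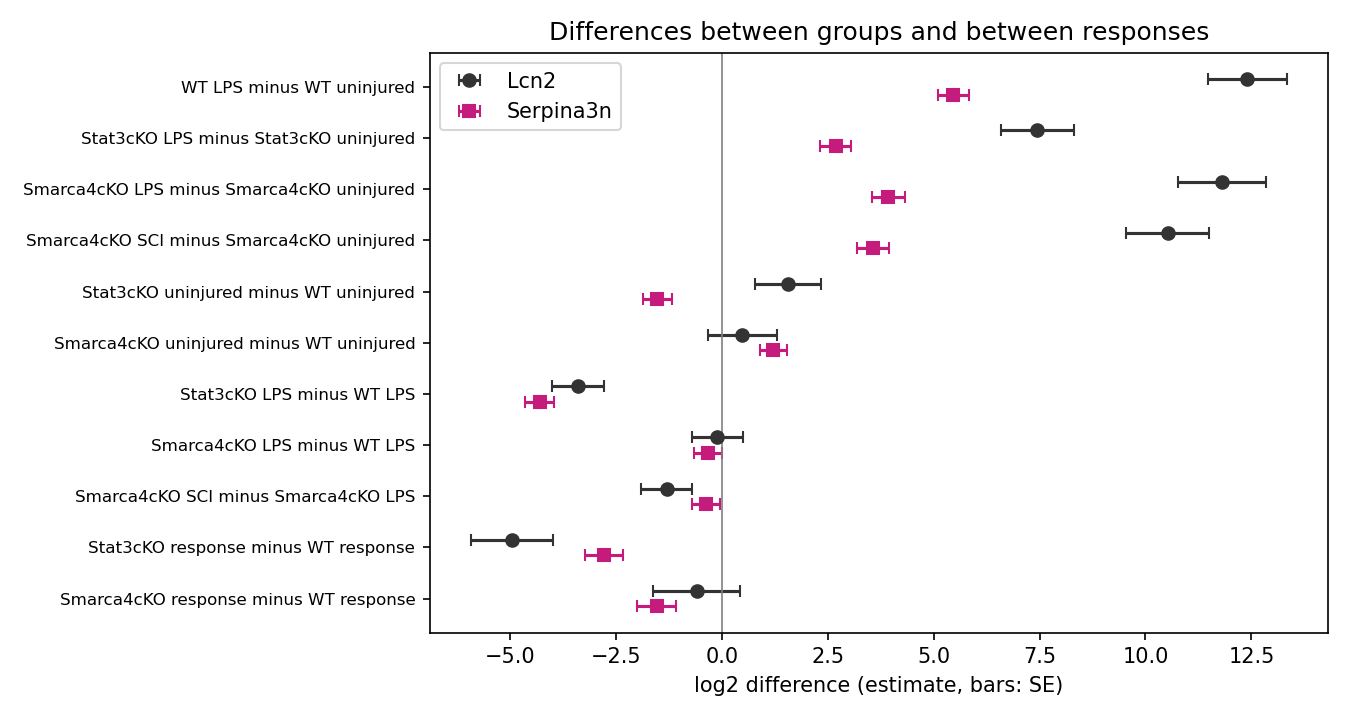
Log2 difference of Lcn2 (circles) and Serpina3n (squares) for 9 pairs of groups and 2 differences between responses, as estimate with bars of 1 SE, from a fit of 25 libraries. Both genes lie far to the right for the 4 challenges, and far to the left for Stat3cKO against WT after LPS (-3.40 and -4.30).

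After SCI in Smarca4cKO mice, Lcn2 was at 488, 307, 99.2 and 366 CPM in libraries 1 to 4, a mean of 315.3 ± 162.6 CPM (SD, n = 4), and Serpina3n at 3890, 3597, 2370 and 3657 CPM, a mean of 3378 ± 684 CPM. All 4 lay above the uninjured libraries, as for 13.6% of the common genes. The log2 difference from uninjured was 10.52 ± 0.99 for Lcn2 and 3.57 ± 0.38 for Serpina3n. SCI library 3 was lowest for both genes. Against LPS in the same genotype, Lcn2 was lower after SCI with no overlap, as for 10.5% of common genes, at a ratio of means of 2.46 and a log2 difference of -1.30 ± 0.60. The nearest libraries were 1.26-fold apart, and the difference was -0.999 without SCI library 3, -1.16 without Smarca4cKO LPS library 2 and -1.44 without Smarca4cKO LPS library 1. Serpina3n overlapped between SCI and LPS (-0.37 ± 0.33, and -0.30 or -0.46 without Smarca4cKO LPS library 2 or 1). The 2 challenges differ in agent, in time and in the region of cord, and share their uninjured libraries. Astrocyte markers summed to 40700 to 55700 CPM after SCI, below the 58300 to 62400 CPM of the uninjured libraries. Oligodendrocyte markers summed to 28190 to 38760 CPM against 6452 to 12780 CPM, and microglia and macrophage markers (13 of 18 listed) to 512 to 1993 CPM against 81.3 to 525 CPM. Both listed neutrophil markers, Csf3r and Lyz2, rose, with a sum of 72.3 to 339.9 CPM against 12.6 to 32.3 CPM. Fibroblast markers summed to 602 to 1056 CPM against 283 to 369 CPM, and ependymal markers to 219 to 313 CPM against 18.4 to 133 CPM. The part of these other cells in the Lcn2 and Serpina3n levels after SCI was not tested.

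In order of mean level, Lcn2 ran from WT LPS through Smarca4cKO LPS, Smarca4cKO SCI and Stat3cKO LPS to Stat3cKO, Smarca4cKO and WT uninjured. WT LPS and Smarca4cKO LPS overlapped, as did Smarca4cKO SCI and Stat3cKO LPS, where SCI library 3 at 99.2 CPM lay below the highest Stat3cKO LPS library. Serpina3n ran from WT LPS through Smarca4cKO LPS and SCI, which overlapped with their neighbours, down 11.9-fold to Smarca4cKO uninjured and Stat3cKO LPS, which overlapped each other, and then to WT uninjured and Stat3cKO uninjured. Per kilobase, Serpina3n after LPS stood at 2626 ± 1133 CPM per kb in WT, 2112 ± 255 in Smarca4cKO and 134 ± 34.7 in Stat3cKO, and Lcn2 at 316 ± 255, 295 ± 56.4 and 30.0 ± 18.9. In WT LPS and SCI libraries Serpina3n ranked between 9 and 20 of the 7531 genes with a length, and in Smarca4cKO LPS between 11 and 16. In Stat3cKO LPS it ranked between 214 and 435. Lcn2 ranked between 36 and 362 in WT LPS, 105 and 180 in Smarca4cKO LPS, 171 and 1110 after SCI, and 696 and 2663 in Stat3cKO LPS.

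Counted against each other, Lcn2 gained on Serpina3n under every challenge. The library ratio of Lcn2 counts per 1000 Serpina3n counts was 1.72 ± 1.51 in WT uninjured (SD, n = 4), 10.9 ± 14.3 in Stat3cKO uninjured (n = 3) and 0.748 ± 0.164 in Smarca4cKO uninjured (n = 3). It was 137.9 ± 55.1 in WT LPS (n = 4), 270 ± 106 in Stat3cKO LPS (n = 4), 176.7 ± 13.9 in Smarca4cKO LPS (n = 3) and 88.3 ± 35.1 after SCI (n = 4). In Stat3cKO LPS it ranged from 181.7 to 424.2 and in WT LPS from 91.6 to 216.3, so the 2 groups overlapped although the mean was higher in Stat3cKO. The high uninjured Stat3cKO mean came from library 3, at 27.4.

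**Figure D3:**
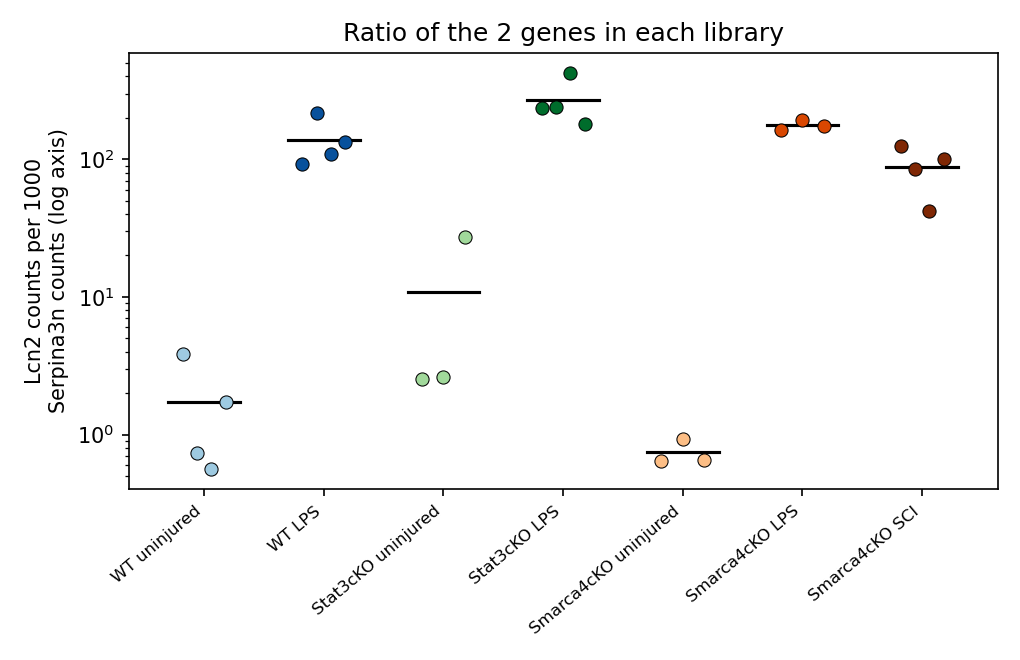
Lcn2 counts per 1000 Serpina3n counts in each library, on a log axis, by group; points are libraries and lines group means. All challenged libraries lie at 41.9 or above and all uninjured ones at 27.4 or below.

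Within groups, the 2 genes varied together among challenged libraries and not among uninjured ones. Once each group's mean was taken away on the scale of log2(CPM + 0.5), Pearson's r was 0.57 and Spearman's rho 0.54 over all 25 libraries. Over the 15 challenged libraries r was 0.93 and rho 0.88. Over the 10 uninjured libraries both were -0.16, where the pseudocount exceeds most Lcn2 levels. These are descriptions, since libraries share sequencing, depth scaling and their group mean, and no p is given. Without WT LPS library 2 and SCI library 3, the libraries farthest from their group mean of Lcn2, r over the remaining 23 was 0.44. With 1 group left out at a time, r ran from 0.38 without WT LPS to 0.82 without WT uninjured, and was 0.52 without Stat3cKO LPS and 0.57 without Smarca4cKO LPS. In all 4 challenged groups the same library had the highest level of both genes: WT LPS 2, Stat3cKO LPS 3, Smarca4cKO LPS 2 and SCI 1. Over the 7 groups, 4 shared their highest library, 5 their lowest and 3 the whole order (WT LPS, Smarca4cKO LPS and SCI).

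**Figure D4:**
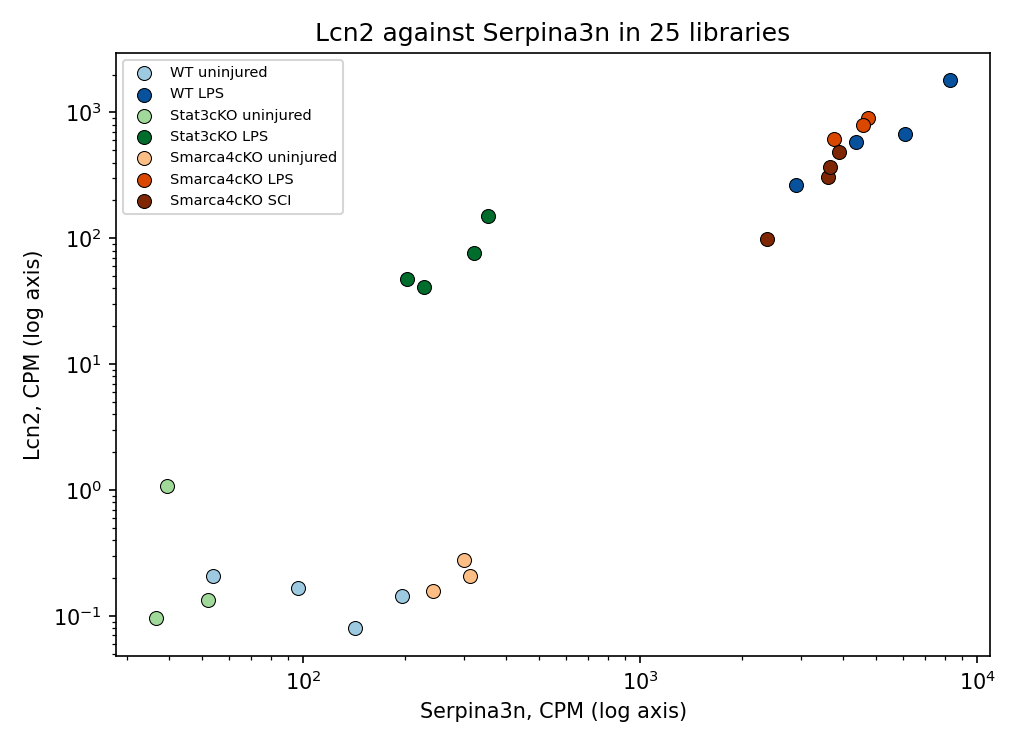
Lcn2 against Serpina3n in 25 libraries, both in CPM on log axes, coloured by group. Stat3cKO LPS libraries lie at 41.4 CPM of Lcn2 or above, over all uninjured libraries, while their Serpina3n overlaps that of Smarca4cKO uninjured, and within the challenged groups higher Serpina3n goes with higher Lcn2.

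Over all 25 libraries and 7630 genes with a mean of at least 1 CPM, the genes whose levels followed Lcn2 most closely were Timp1 (an inhibitor of matrix metalloproteinases; r = 0.93), Fcgr2b (an inhibitory Fc receptor; 0.92), Cp (ceruloplasmin, a copper-carrying ferroxidase; 0.91), Plxnd1 (a semaphorin receptor; 0.91) and Olfm1 (a secreted olfactomedin glycoprotein; 0.90). For Serpina3n they were the small heat shock genes Hspb1 (0.93) and Hspb6 (0.93), Nudt4 (a diphosphoinositol phosphohydrolase; 0.93), Timp1 (0.91) and the translation elongation factor Eef1a1 (0.90). Each of the 2 genes stood at place 7 for the other, at r = 0.89. By Spearman's rho each was the other's closest gene. Restricted to challenged libraries, 0 of these 5 genes for Lcn2 and 1 for Serpina3n stayed among the closest 5, so these names depend on the step from uninjured to challenged.

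Of these 9 genes, 6 (Timp1, Fcgr2b, Hspb1, Hspb6, Nudt4 and Eef1a1) lay lower in Stat3cKO LPS than in WT LPS with no overlap. Of all 7834 common genes 3.55% did so, and the choice of the 9 genes over the same libraries favours this pattern. Timp1 was at 261.8 ± 167.4 CPM in WT LPS, 206.8 ± 131.5 in Smarca4cKO LPS and 198.3 ± 39.0 after SCI, against 15.2 ± 7.70 CPM in Stat3cKO LPS. Hspb1 was at 1076 ± 1028 CPM in WT LPS, 1198 ± 663 in Smarca4cKO LPS and 372.5 ± 74.5 after SCI, against 45.01 ± 13.79 CPM in Stat3cKO LPS. It also shared with Serpina3n a lower uninjured level in Stat3cKO, at 2.15 ± 0.659 CPM against 31.2 ± 21.0 CPM in WT. Plxnd1 differed from this pattern, at 57.5 ± 36.3 CPM in WT LPS and 50.1 ± 6.43 CPM in Stat3cKO LPS, with overlap. Olfm1 was at 310.1 ± 70.2 CPM and 229 ± 35.4 CPM in these groups, with overlap. Cp also overlapped, at 105.3 ± 53.2 CPM in WT LPS and 54.5 ± 6.41 CPM in Stat3cKO LPS. Eef1a1 moved over a narrow range, from 554.6 ± 8.40 CPM in Stat3cKO uninjured to 1093 ± 104 CPM in WT LPS.

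**Figure D5:**
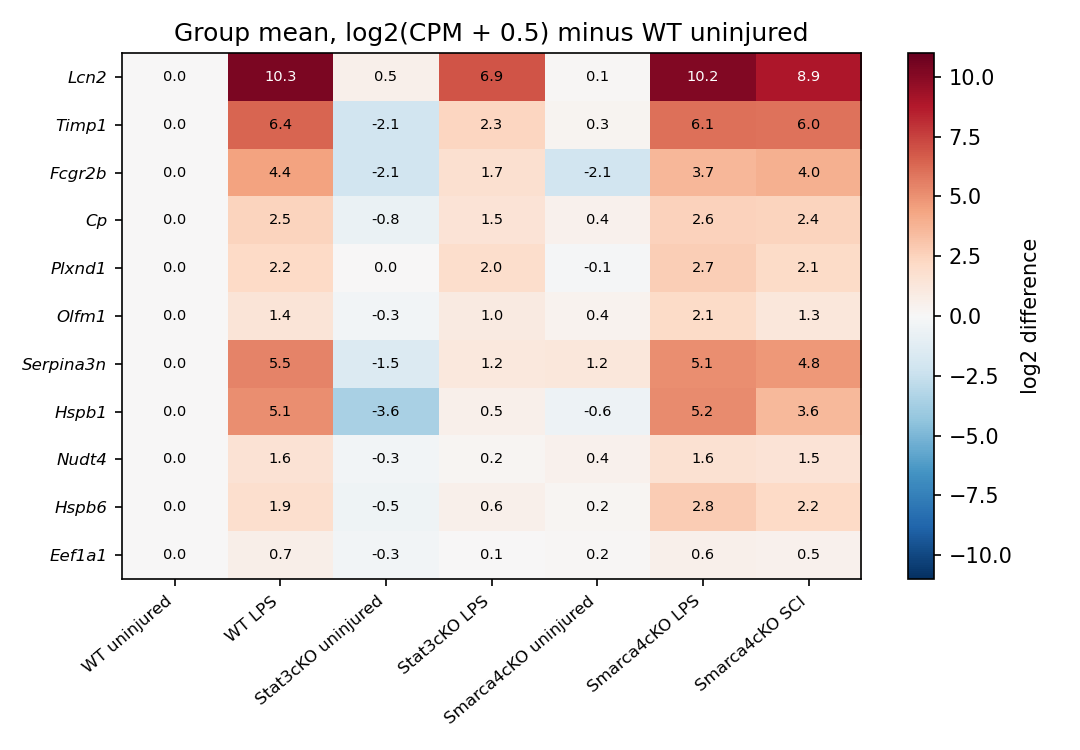
Group mean level of Lcn2, Serpina3n and the genes closest to each over 25 libraries, as log2(CPM + 0.5) minus the WT uninjured value. In the Stat3cKO LPS column Timp1, Hspb1, Hspb6, Nudt4 and Serpina3n are paler than in the WT LPS column, while Plxnd1 and Olfm1 are close in both.

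Other genes commonly used as markers of astrocyte reactivity, 11 in the list, were tested with edgeR's quasi-likelihood test at a Benjamini-Hochberg adjusted p under 0.05 over all genes. In WT after LPS 5 of 11 rose and none fell, where 2.54% of 10566 genes were called (1.54% higher and 0.994% lower), and their median log2 difference was 3.23 against -0.00 over all genes. In Stat3cKO 7 of 11 rose, where 10.6% of 11709 genes were called, 7.12% higher and 3.44% lower (median 2.34 against -0.01). After SCI 9 of 11 rose, where 14.5% of 11109 genes were called, 10.1% higher and 4.31% lower (median 4.10 against 0.07). In Smarca4cKO after LPS edgeR called 2 of 8040 genes (0.0249%), both outside the lists. The lists leave out Lcn2 and Serpina3n while the shares over all genes include them, so these 2 calls may be those genes. In this comparison 468 genes were at an unadjusted p under 0.05, and DESeq2 called 288. There 0 of the 10 tested passed, with 7 at an unadjusted p under 0.05 and 7 called by DESeq2, and their median was 2.72. Steap4, a metalloreductase, was at most at 0.0189 CPM in uninjured WT and at 7.37 to 68.3 CPM in WT LPS (adjusted p = 0.0012). Hspb1 rose by 5.07 ± 0.77 in WT (adjusted p = 0.0106). Cxcl10, a chemokine that attracts T cells, was higher in Stat3cKO LPS than in WT LPS, unlike Lcn2 and Serpina3n. It was at 75.3 ± 129.0 CPM in WT LPS against 3.996 ± 3.205 CPM uninjured. In Stat3cKO it was at 4448 ± 3781 CPM after LPS against 0.519 ± 0.244 CPM uninjured. Smarca4cKO LPS libraries held 0.123 to 2274 CPM (760 ± 1311 CPM), against 0.0430 ± 0.0443 CPM uninjured. The response of Cxcl10 was 8.86 ± 1.78 larger in Stat3cKO than in WT (adjusted p = 0.033, where 0.377% of 10341 genes were called, 0.3% higher and 0.0774% lower). That call was lost in 8 of 15 fits that left out 1 library, with adjusted p up to 0.159. No other gene of the list passed in that difference, Osmr being at an adjusted p of 0.0967. In Smarca4cKO minus WT, where 0.316% of 7919 genes were called (0.177% higher and 0.139% lower), 0 of 11 passed (3 at an unadjusted p under 0.05, 1 by DESeq2). The WT counts of every list here rest partly on WT LPS library 2. Without it edgeR called 29 genes in place of 268, and 2 of these 11. Without Stat3cKO LPS library 1 the Stat3cKO rises were 7 for these markers and, for the lists that follow, 4 for iron, 2 for lipocalins, 2 for serpins, 2 for proteases, 2 for receptors, 10 for transcription factors, 3 for acute phase and 9 for glucocorticoid genes. Without Stat3cKO LPS library 4 they were 7, 6, 2, 2, 2, 2, 14, 5 and 12 in the same order. Without Smarca4cKO LPS library 2 the count stayed at 0 in every list.

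Receptors and iron carriers tied to lipocalin-2 did not show one direction. Slc22a17, a lipocalin-2 receptor, was at 483 ± 46.1 CPM in WT uninjured and 306 ± 71.2 CPM in WT LPS, a log2 difference of -0.69 ± 0.20 (edgeR adjusted p = 0.0993), and at 589 ± 27.2 and 434 ± 53.5 CPM in Stat3cKO (-0.43 ± 0.14, adjusted p = 0.0864). In Smarca4cKO its difference was -0.02 ± 0.28 after LPS (adjusted p = 0.998) and 0.13 ± 0.18 after SCI (adjusted p = 0.845). Lrp2, the other receptor, was listed in the WT table only, at 3.51 ± 3.52 CPM uninjured and 0.789 ± 1.58 CPM after LPS (adjusted p = 0.775). Of the iron list of 22 genes, 4 of 20 tested rose and 1 fell in WT (1 and 0 without WT LPS library 2), 5 of 19 rose and 1 fell in Stat3cKO (3 and 1 without Stat3cKO uninjured library 3), 0 of 18 passed in Smarca4cKO LPS (5 at an unadjusted p under 0.05, 3 by DESeq2) and 5 of 18 rose after SCI. Over all genes 1.54% were called higher and 0.994% lower in WT, 7.12% and 3.44% in Stat3cKO, and 10.1% and 4.31% after SCI. The list's median log2 difference was 0.01, -0.01, 0.47 and -0.04 in that order. Cp rose by 2.34 ± 0.31 in Stat3cKO (edgeR adjusted p = 0.00101). It also rose by 2.46 ± 0.44 in WT (adjusted p = 0.0147) and by 1.92 ± 0.47 after SCI (adjusted p = 0.0277). The last 2 calls were lost in 2 of 8 and 4 of 7 fits that left out 1 library. Steap3, an endosomal ferrireductase, fell by 2.12 on the log2 scale in Stat3cKO (SE 0.26, adjusted p = 0.000687). In WT its difference was -1.40 (SE 0.32, adjusted p = 0.0439), a call lost in 8 of 8 such fits. Trf, transferrin, rose after SCI by 3.12 ± 0.38 (adjusted p = 0.00393), from 292.8 ± 119.3 to 2715 ± 852 CPM, in the libraries where oligodendrocyte markers were also high.

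Among other lipocalin-fold genes, Apod, a lipid-carrying lipocalin, rose in 3 comparisons. Its log2 difference was 2.72 ± 0.31 in WT LPS (adjusted p = 0.00133), 2.56 ± 0.41 in Stat3cKO LPS (adjusted p = 0.00329) and 4.67 ± 0.23 after SCI (adjusted p = 0.000224). In Smarca4cKO LPS it was at 1016 ± 576 CPM against 127 ± 17.9 CPM uninjured, and 0 of the 4 lipocalin genes tested passed (2 at an unadjusted p under 0.05, 1 by DESeq2). Ptgds, the lipocalin-type prostaglandin D synthase, rose by 1.67 ± 0.27 in Stat3cKO LPS (adjusted p = 0.0033). Of the tested genes of this list, 1 of 5 rose and 1 fell in WT (1 and 0 without WT LPS library 2), 2 of 5 rose in Stat3cKO and 2 of 6 rose after SCI. The medians were -0.49, 0.41 and 1.99 in that order. Of all genes 1.54%, 7.12% and 10.1% were called higher in these comparisons, and 0.994% were called lower in WT.

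Among other serpins, 7 of 13 tested rose after SCI, with a median log2 difference of 2.63, where 10.1% of all genes were called higher and the median of all genes was 0.07. In WT LPS 2 of 10 rose (0 without WT LPS library 2; 1.54% of all genes were called higher), in Stat3cKO LPS 2 of 9 rose and 1 fell (7.12% and 3.44% of all genes), and in Smarca4cKO LPS 0 of 5 passed (1 at an unadjusted p under 0.05, 1 by DESeq2). Serpina3m, a neighbour of Serpina3n, was at most at 0.0121 CPM in uninjured WT and at 0.288 to 24.7 CPM in WT LPS (adjusted p = 0.012, and 0.0597 without WT LPS library 2). Serpina3f was at 4.65 ± 5.11 CPM in WT LPS (adjusted p = 0.0503) and at 9.58 ± 6.67 CPM in Stat3cKO LPS, against at most 0.0160 CPM uninjured (adjusted p = 0.00398). The difference between its responses did not pass (adjusted p = 0.986). Serpina3c, at 6.04 ± 5.33 CPM, and Serpina3i, at 6.14 ± 2.18 CPM, were counted after SCI and at 0 in all 3 uninjured libraries (adjusted p = 0.00724 and 0.00652). Since Serpina3n shares stretches of 50 bases with Serpina3c, Serpina3f and Serpina3m, these low counts beside an abundant relative are uncertain. Serping1, the C1 inhibitor, rose in Stat3cKO LPS from 0.821 ± 1.32 to 239 ± 98.0 CPM (edgeR adjusted p = 0.00242). It also rose in WT LPS, by 3.45 ± 0.64 (adjusted p = 0.0184), a call lost in 3 of 8 fits that left out 1 library. Serpinh1, a collagen chaperone, fell in Stat3cKO LPS by 1.26 on the log2 scale (SE 0.21, adjusted p = 0.00372).

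The known targets of Serpina3n, granzyme B and elastase, and Ctsg and Mmp9 were among the tested genes of no comparison. Of other proteases and their partners, 1 of 12 rose in WT LPS, 3 of 13 rose and 1 fell in Stat3cKO LPS (1 and 0 without Stat3cKO uninjured library 3), 0 of 11 passed in Smarca4cKO LPS (2 at an unadjusted p under 0.05, 2 by DESeq2) and 8 of 14 rose and 1 fell after SCI. The shares of all genes called higher were 1.54% in WT, 7.12% in Stat3cKO and 10.1% after SCI, and those called lower 0.994%, 3.44% and 4.31%. The rise in WT was that of Ctsl, cathepsin L, by 1.66 ± 0.20 (adjusted p = 0.00232), from 396.9 ± 40.5 to 1283 ± 363 CPM. Klk6, a secreted serine protease of oligodendrocytes and neurons, rose after SCI by 5.23 ± 0.42 (adjusted p = 0.000926), beside the high oligodendrocyte markers. Mmp2, a matrix metalloproteinase, was at 46.1 to 68.9 CPM after SCI and at most at 0.0224 CPM uninjured (adjusted p = 0.00195).

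Upstream of the 2 genes, receptors for inducing cytokines and LPS changed in part. Of 20 listed, 2 of 16 tested rose in WT (0 without WT LPS library 2), 4 of 16 rose and 1 fell in Stat3cKO (2 rose without Stat3cKO LPS library 1, LPS library 4 or uninjured library 3), 0 of 13 passed in Smarca4cKO LPS (2 at an unadjusted p under 0.05, 2 by DESeq2) and 5 of 18 rose and 1 fell after SCI. Of all genes, 1.54%, 7.12% and 10.1% were called higher in WT, Stat3cKO and SCI, and 3.44% and 4.31% lower in the last 2. Osmr, the oncostatin M receptor subunit, was at 0.0314 ± 0.0305 CPM in Stat3cKO uninjured and 36.3 ± 17.2 CPM after LPS (adjusted p = 5.46e-05), and at 0.0349 ± 0.0285 CPM in Smarca4cKO uninjured and 88.3 ± 12.8 CPM after SCI (adjusted p = 0.000569). In WT it was at 5.35 ± 3.57 and 92.7 ± 62.6 CPM (adjusted p = 0.0553), and in Smarca4cKO LPS at 94.8 ± 71.3 CPM (adjusted p = 0.0719). Tnfrsf1a, a tumour necrosis factor receptor, rose by 1.59 ± 0.23 in Stat3cKO (edgeR adjusted p = 0.00178) and by 1.24 ± 0.21 in WT (adjusted p = 0.0142). The WT call of Tnfrsf1a was lost in 3 of 8 fits that left out 1 library. Il6st, the shared subunit gp130, was at 410 ± 20.2 CPM in Stat3cKO uninjured and 233 ± 53.1 CPM after LPS (adjusted p = 0.0258). That call was lost without any 1 of the 3 uninjured libraries, with adjusted p up to 0.0995.

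Many transcription factors and feedback regulators rose in Stat3cKO, the genotype in which Lcn2 and Serpina3n were lowest after LPS. There 15 of 24 tested rose and 1 fell, with a median log2 difference of 3.18, and 10 rose without Stat3cKO LPS library 1. Stat3, the gene deleted in these mice, is on the list and among these rises, by 3.85 on the log2 scale (edgeR adjusted p = 0.00108). Stat3 also rose in WT, by 1.37 (edgeR adjusted p = 0.0362), a call lost in 7 of 8 fits that left out 1 library. In WT 2 of 23 rose (median 1.32, 11 at an unadjusted p under 0.05, and 0 without WT LPS library 2). In Smarca4cKO LPS 0 of 18 passed (median 1.54, 5 at an unadjusted p under 0.05, 3 by DESeq2), and after SCI 6 of 25 rose and 1 fell (3 and 0 without SCI library 3). The share of all genes called higher was itself 7.12% in Stat3cKO, 1.54% in WT and 10.1% after SCI. The share called lower was 3.44% in Stat3cKO and 4.31% after SCI. These counts in separate comparisons are no test of a difference between genotypes. Cebpd, a C/EBP factor of the acute phase response, rose in Stat3cKO by 4.16 ± 0.28 (adjusted p = 1.55e-05), and its difference was 3.65 ± 1.38 in WT (adjusted p = 0.23), with a response difference of 0.47 ± 1.53 (adjusted p = 0.976). Nfkbiz, an NF-kB co-regulator known to be needed for Lcn2 induction in mice, was at 148 ± 132 CPM in Stat3cKO LPS and 33.5 ± 44.9 CPM in WT LPS, against 6.78 ± 3.51 and 3.27 ± 2.30 CPM uninjured. Its adjusted p was 0.0122 in Stat3cKO, a call lost without uninjured library 2 or 3 (adjusted p up to 0.0558), and it was 0.131 in WT, and the response difference was 1.11 ± 1.33 (adjusted p = 0.9). Irf1, an interferon-induced factor, was at 566 ± 405 CPM in Stat3cKO LPS and 8.03 ± 5.32 CPM uninjured (adjusted p = 0.000972).

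Other acute phase genes rose in part, among them Cp, which the iron list counts as well. Of 20 listed, 3 of 8 tested rose in WT, 4 of 8 in Stat3cKO and 5 of 7 after SCI, where 1 fell, and 0 of 6 passed in Smarca4cKO LPS (3 at an unadjusted p under 0.05, 2 by DESeq2). Over all genes 1.54%, 7.12% and 10.1% were called higher in WT, Stat3cKO and SCI, and 4.31% were called lower after SCI. Saa3, a serum amyloid A protein, was at 30.3 ± 26.6 CPM in WT LPS (adjusted p = 0.00133) and at 72.2 ± 47.3 CPM in Stat3cKO LPS (adjusted p = 1.97e-05), and at most at 0.0242 CPM in uninjured libraries of both. Lrg1, a leucine-rich acute phase glycoprotein, was at 28.5 ± 21.5 CPM in WT LPS (adjusted p = 0.00133) and 5.28 ± 1.65 CPM after SCI (adjusted p = 0.00652). Genes induced by glucocorticoids, the hormones released under systemic LPS, rose in Stat3cKO in 13 of 17 tested, with a median of 1.43, and in 8 without Stat3cKO uninjured library 3, where 7.12% of all genes were called higher. Their difference between responses, Stat3cKO minus WT, was called for 0 of 17 (5 at an unadjusted p under 0.05, 0 by DESeq2). In WT 2 of 17 rose (median 0.86, and 1 without WT LPS library 2), and in Smarca4cKO LPS 0 of 17 passed (5 at an unadjusted p under 0.05, 3 by DESeq2). After SCI none of 16 rose and 1 fell, Tsc22d3 (GILZ), from 529 ± 216 to 122 ± 13.8 CPM (log2 difference -2.21 ± 0.29, adjusted p = 0.00493). Fkbp5 rose by 3.51 ± 0.56 in Stat3cKO LPS (adjusted p = 0.0033).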

How the data were processed

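Ribosome-associated RNA of 25 libraries was sequenced as 50 bp paired reads from 10 ng of RNA with an integrity number of at least 8.9, per the labels. The authors deposited 4 tables of raw counts per gene, 1 for each comparison. Per the submitters' processing notes, the tools were edgeR 3.28.0, HTSeq 0.6.0 and STAR 2.4.0j on mm10, with no role stated for each. Whether counting used strand is not given in the sources used here. Genes missing from a table are not listed there, which is not the same as 0 counts.

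Each table was tested with edgeR 4.0.16 (R 4.3.3): filterByExpr, TMM scaling, the quasi-likelihood test and Benjamini-Hochberg adjustment over all genes tested, called at 0.05. Differences between responses were fitted over WT and Stat3cKO libraries or WT and Smarca4cKO libraries. A fit of all 7 groups over the 7834 common genes gave the log2 differences ± SE of Lcn2 and Serpina3n. Alternatives were DESeq2 1.42.0, other scaling, other filters and leaving out each library. The scripts were tested on simulated counts. The lists of genes and the 2 genes themselves were chosen with earlier results of these data known. The lists share genes, so their counts are not separate. Cp is counted with the reactivity markers, the iron genes and the acute phase genes. Steap4 is counted with the reactivity markers and the iron genes, and Osmr with the reactivity markers and the receptors. Closest genes were the 5 of highest Pearson's r on log2(CPM + 0.5). From each list and comparison, up to 3 called genes of largest change and 1 called the other way could be named. Stat3, Smarca4, Slc22a17, Lrp2, Mmp9, Gzmb, Elane, Ctsg, Nfkbiz, Cebpd, Osmr and the Serpina3 genes could be named as well. Of all these the text gives a selection made after their values were seen. 1 gene of the lists, counted in their totals, is not reported here by name. Library numbers follow accession order and pair nothing. Separate animals are implied by the titles only, so p-values measure the spread between these libraries.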

Additional observations from a re-analysis of the deposited data

Results flagged for a closer look

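Of 48 checks of single libraries within groups, 1 stood out, and chance alone marks about 1 group in 20. Timp1 was at 9.45 CPM in 1 WT uninjured library, where the next highest was at 0.918 CPM.

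Cxcl10 had a response to LPS that was 8.86 larger on the log2 scale in Stat3cKO than in WT by the test of the difference itself (edgeR's quasi-likelihood test over 15 libraries, adjusted p = 0.033). That call was lost in 8 of 15 fits with 1 library left out, with adjusted p up to 0.159. The uninjured mean of Cxcl10 was 0.519 CPM in Stat3cKO and 3.996 CPM in WT. In Smarca4cKO it was at 0.0430 CPM uninjured and 760 ± 1311 CPM after LPS.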

How the results depend on the processing

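All 42 alternative values of the group levels of Lcn2 and Serpina3n moved by less than 1 SD. With DESeq2 in place of edgeR the number of genes called was 613 in WT, 288 in Smarca4cKO LPS, 166 for the Stat3cKO minus WT response and 100 for the Smarca4cKO minus WT response. With totals without TMM scaling, the Lcn2 difference of uninjured Smarca4cKO from WT was 0.72. The correlation of both genes within groups was 0.93 over challenged libraries, 0.94 over LPS libraries, 0.82 without the WT uninjured group, 0.38 without the WT LPS group and, in a subset chosen after seeing the data, -0.16 over uninjured libraries.

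Leaving out 1 library at a time gave 29 to 217 genes called in WT (29 without WT LPS library 2), 657 to 1275 in Stat3cKO, 2 to 5 in Smarca4cKO LPS and 1293 to 2266 after SCI. It gave 14 to 119 for the Stat3cKO response difference (14 without Stat3cKO uninjured library 3, 119 without WT LPS library 3) and 14 to 367 for that of Smarca4cKO (14 without WT LPS library 2, 367 without Smarca4cKO LPS library 3). For Lcn2 the log2 difference ran from 11.69 to 12.70 in WT, 6.94 to 9.39 in Stat3cKO, 11.63 to 12.05 in Smarca4cKO LPS and 10.23 to 10.82 after SCI. Between uninjured groups it ran from -0.38 to 2.01 for Stat3cKO and 0.27 to 0.68 for Smarca4cKO, and was -0.38 without Stat3cKO uninjured library 3. Between LPS groups it ran from -3.92 to -2.68 for Stat3cKO and -0.39 to 0.61 for Smarca4cKO, and for SCI against LPS from -1.57 to -0.999. The response differences ran from -5.48 to -3.01 and from -0.88 to 0.12. For Serpina3n the same differences ran from 5.19 to 5.80, 2.56 to 2.86, 3.83 to 4.03 and 3.46 to 3.71 for the 4 challenges. They ran from -1.76 to -1.19 and 0.97 to 1.55 between uninjured groups, -4.50 to -4.01 and -0.52 to -0.03 between LPS groups, -0.46 to -0.23 for SCI against LPS, and -3.10 to -2.49 and -1.86 to -1.25 for the responses. No alternative turned the direction of a Serpina3n difference. Causes of these shifts were not tested.

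No paired analysis was possible because animal numbers in the sample names link no library of one group to another. Uninjured Lcn2 rests on 40 counts in WT, 109 in Stat3cKO and 52 in Smarca4cKO, which limits every Lcn2 fold.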
